A study of Mus musculus with 44 samples.

Results

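The sterol sensing, uptake and efflux genes are 9 rows of the deposited table, chosen by symbol: the sterol sensors *Insig1* and *Insig2*, their partner *Scap*, the transcription factors *Srebf1* and *Srebf2*, the receptor-degrading ligase *Mylip*, the sterol receptor *Nr1h2* and the cholesterol exporters *Abca1* and *Abcg1*. They are 9 of the 14699 genes listed, and all 9 are among the 11963 genes that reached 1 CPM in at least 5 libraries and were tested. The samples are 44 libraries of CD45+CD11c+MHCII high cells, which the study treats as migratory dendritic cells (DCs), sorted from draining inguinal lymph nodes of female mice 24 h after a subcutaneous injection. Control mice (genotype label WT) received B16-F10-OVA melanoma cells, a mouse line that expresses ovalbumin, at ZT3, ZT9, ZT15 or ZT21 (5 mice per timepoint, 20 libraries). Clec9a-cre:Bmal1 flox mice (genotype label KO), which are homozygous for a floxed *Arntl*, the clock gene that encodes BMAL1, and carry a Cre driven by the promoter of *Clec9a*, a gene of conventional DCs and their precursors, received the same cells (3 per timepoint, 12 libraries). Sham-injected control mice received PBS (3 per timepoint, 12 libraries). The tumour cells were thus present in both genotypes, and the sham condition was available for control mice. ZT counts hours from lights on. The mice of the study were young adults, and the RNA-seq came from independent experiments that the labels do not assign to libraries.

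Cells hold their membrane cholesterol within narrow limits by a feedback loop in the endoplasmic reticulum. When sterols are plentiful, INSIG proteins retain SCAP with its cargo, the SREBP precursors. When sterols fall, SCAP carries SREBPs to the Golgi, where they are cleaved to release transcription factors that raise cholesterol synthesis and lipoprotein uptake, and *Insig1* itself is a target. In the opposite direction, oxysterols activate the liver X receptors (LXRs), which raise the exporters ABCA1 and ABCG1 and the ligase MYLIP, which marks lipoprotein receptors for degradation. In DCs, cholesterol content affects membrane organisation and antigen presentation.

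The 16 DC markers listed (among them *Cd74*, *Ccr7* and *Fscn1*) were above 1 CPM in every library and summed to between 30199 and 42349 CPM. Tumour-injected control mice had 14.8 ± 3.65 CPM of *Arntl* (SD, n = 20) and the mice labelled KO had 19.9 ± 6.91 CPM (SD, n = 12), while sham-injected control mice had 21.7 ± 6.11 CPM (SD, n = 12). The mice labelled KO were thus not below the tumour-injected control mice in *Arntl*, and they are therefore called libraries labelled KO. These values count reads over the whole gene, so they do not show whether its floxed part was removed. Reads on genes ranged from 20088012 to 28962671 per library in tumour-injected control mice. They ranged from 29406729 to 55799163 in libraries labelled KO and from 28003328 to 49590055 in sham-injected mice. Depth and genotype therefore cannot be told apart. The sham-injected mice overlapped in depth with libraries labelled KO, and with tumour-injected control mice through sham ZT9 replicate 1 alone (28003328 reads). The next sham library had 30611831 reads, above every tumour-injected control library. Markers of other cell types also moved with the groups. The 14 macrophage and monocyte markers summed to 293 to 570 CPM in tumour-injected control mice, 399 to 1453 CPM in libraries labelled KO and 626 to 936 CPM in sham-injected mice. *Mertk* was under 1 CPM in 28 of 44 libraries and *Fcgr1* in 20, while *Adgre1*, *Csf1r* and *C1qa* were above 1 CPM in all. The 10 NK cell markers summed to 72.3 to 126 CPM, 102 to 278 CPM and 173 to 778 CPM in the same order, and *Klra8* was under 1 CPM in 33 of 44 libraries. The 18 T cell markers tested summed to 683 to 1202 CPM, 834 to 1699 CPM and 912 to 1775 CPM. The part of depth and of these cells in the differences below was not tested. In sorted bulk samples, fewer cells of a type and less RNA per cell cannot be told apart.

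Per kilobase of exon, the members differed widely in level. In tumour-injected control mice *Abcg1* was highest, with 78.7 ± 8.94 CPM per kb (SD, n = 20), followed by *Srebf2* with 42.5 ± 6.35, *Nr1h2* with 34.3 ± 2.80, *Mylip* with 18.5 ± 2.90 and *Insig1* with 13.9 ± 4.43. *Srebf1*, with 8.09 ± 1.27 CPM per kb, *Insig2*, with 6.18 ± 1.31, and *Scap*, with 5.85 ± 1.34, lay lower, and *Abca1*, with 0.674 ± 0.255, was the lowest. The neighbours *Insig2* and *Scap* differed by less than the SD of either, and *Mylip* and *Insig1* by about the SD of *Insig1*. Of the exporters among the members, the RNA per kb was thus almost all *Abcg1*, whereas *Abca1* was represented by 75 to 786 reads per library.

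Promoter sequences are shown for 3 members as examples: *Insig1*, the member with the smallest adjusted p for time of day, *Srebf2*, the member whose levels correlated best with those of *Insig1*, and *Abca1*, which like *Insig1* holds the E-box CACGTG, the hexamer that CLOCK–BMAL1 and other basic helix-loop-helix proteins recognise. The expression data do not test these motifs. They are RefSeq sequences of GRCm38.p6, limited to bases upstream of the annotated start, 5′ to 3′ on the strand of the gene. Capitals mark CACGTG, and CCAAT or its reverse complement ATTGG, the box of NF-Y. The *Insig1* sequence is chr5:28071162-28071362 (plus strand), that of *Srebf2* is chr15:82147019-82147180 (plus strand) and that of *Abca1* is chr4:53159989-53160145 (minus strand).
Insig1: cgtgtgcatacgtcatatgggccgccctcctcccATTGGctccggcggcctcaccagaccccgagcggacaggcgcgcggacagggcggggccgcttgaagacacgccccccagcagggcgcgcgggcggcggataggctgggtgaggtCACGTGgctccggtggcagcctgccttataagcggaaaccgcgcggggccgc
Srebf2: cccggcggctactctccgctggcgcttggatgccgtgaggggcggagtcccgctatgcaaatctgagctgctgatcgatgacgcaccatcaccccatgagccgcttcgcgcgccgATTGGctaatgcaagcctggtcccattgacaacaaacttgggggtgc
Abca1: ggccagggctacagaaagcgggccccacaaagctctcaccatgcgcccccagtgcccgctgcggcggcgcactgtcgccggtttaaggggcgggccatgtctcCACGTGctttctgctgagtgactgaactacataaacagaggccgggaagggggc
Both strands of the 300-base windows (250 bases before to 50 after the start) were searched, which were found for 8 of the 9 members and not for *Abcg1*. Some members have several start sites, and the 8 members have 13 windows in all. CACGTG was present in 4 of the 13 windows (*Insig1*, *Scap* and *Abca1*), against 7.15% of all 32851 windows. For *Scap* the same CACGTG was counted in windows that overlap, so the separate sites were fewer than the windows. CCAAT was present in 6 of the 13 windows (*Insig1*, *Insig2*, *Srebf1*, *Srebf2* and *Mylip*), against 37.4%. TCACNCCAC, a sterol regulatory element (1.24% of windows), and the LXR repeat, AGGTCA after a spacer of any 4 bases behind a first AGGTCA (0.0152%) or AGGTTA (0.0183%), were not found in a member's window. Only exact strings were searched, so variant forms of these elements would be missed. A match describes the letters of the window and is not evidence of binding. A missing match is likewise not evidence that a member lacks such an element.

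*Insig1* (ENSMUSG00000045294.11, chr5:28071363-28078662, plus strand, GRCm38) encodes the INSIG protein that is itself induced by SREBPs. Whether the gene varied with the time of day was asked first in tumour-injected control mice. Its level at ZT3 was 54.5, 54.5, 50.1, 41.1 and 54.5 CPM in the 5 mice, and at ZT9 it was 58.5, 55.8, 61.0, 54.4 and 55.1 CPM. At ZT15 the values were 35.7, 36.3, 50.9, 37.6 and 39.3 CPM, and at ZT21 they were 24.7, 23.3, 19.8, 22.1 and 28.2 CPM. Every mouse at ZT21 lay below every mouse at the other timepoints, and every mouse at ZT9 lay above every mouse at ZT15, whereas ZT3 and ZT9 overlapped. The time-of-day test called *Insig1* (limma adjusted p = 8.87e-05), and so did the 24-h cosinor (limma adjusted p = 0.00158), whose fitted peak lay at 7.96 h with an amplitude of 0.65 on the log2 scale. The log2 difference was 1.09 between ZT3 and ZT21 (SE 0.12, limma adjusted p = 1.88e-04, a test that called 0.0418% of all genes), 0.52 between ZT9 and ZT15 (SE 0.12, limma adjusted p = 0.00985, 12.1% of all genes) and 0.74 between ZT15 and ZT21 (SE 0.12, limma adjusted p = 0.00972, 4.29% of all genes). At ZT9 against ZT21 with a threshold of 2-fold, *Insig1* was the single member called, against 0.0669% of the genes tested, and ranges that do not overlap between these timepoints were found for 4.09% of them.

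The same gene was followed over the day in the other groups. In libraries labelled KO it was 40.9, 45.6 and 46.2 CPM at ZT3, 59.1, 49.7 and 87.1 CPM at ZT9, 49.7, 49.1 and 52.1 CPM at ZT15 and 47.6, 43.3 and 26.9 CPM at ZT21. In sham-injected mice it was 35.5, 48.8 and 40.2 CPM at ZT3, 47.5, 39.4 and 43.2 CPM at ZT9, 24.2, 22.8 and 27.1 CPM at ZT15 and 17.5, 43.8 and 26.2 CPM at ZT21. In both groups ZT9 had the highest mean, the 3 mice at ZT9 lay above all 3 at ZT21 in libraries labelled KO (ranges of these timepoints did not overlap there for 15.5% of all genes), and in sham-injected mice 1 mouse at ZT21 reached the level of ZT9. Neither group passed the time-of-day test (limma adjusted p = 0.520 for libraries labelled KO and 0.645 for sham-injected mice), nor did the cosinor (unadjusted p 0.0287 and 0.0122). Across all 44 libraries, with a term for the group, *Insig1* was called (limma adjusted p = 6.44e-05), at 0.43 above the mean of the day at ZT9 and -0.52 from it at ZT21 on the log2 scale. The difference in course between groups was not called, either by genotype (unadjusted p = 0.00786, limma adjusted p = 0.158) or by treatment (unadjusted p = 0.0163, limma adjusted p = 0.295), so the groups are not shown to differ in rhythm. With array weights the genotype interaction was called (limma adjusted p = 0.0129).

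Averaged over the day, *Insig1* was 0.25 higher in libraries labelled KO than in control mice (SE 0.08, limma adjusted p = 0.023) and 0.29 higher with tumour cells than with PBS (SE 0.09, limma adjusted p = 0.0139), on the log2 scale. These comparisons, and those of the other members below, use the same control tumour libraries. The genotype difference was called at ZT21 (0.69, SE 0.17, limma adjusted p = 0.00683) and the treatment difference at ZT15 (0.67, SE 0.18, limma adjusted p = 0.0116). Sham-injected mice lay wholly below tumour-injected control mice at ZT9 and ZT15, where 24.2% and 19.4% of all genes did not overlap. The averaged genotype difference did not pass without the library labelled KO ZT9 replicate 3 (0.19, limma adjusted p = 0.0632), without ZT21 replicate 1 of the same group (0.21, limma adjusted p = 0.0540) or with median-of-ratios scaling (0.15, limma adjusted p = 0.194). The difference at ZT21 did not pass without the same ZT21 library (0.53, limma adjusted p = 0.0800), nor that at ZT15 without sham replicate 2 (0.62, limma adjusted p = 0.0761).

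**Figure D1:**
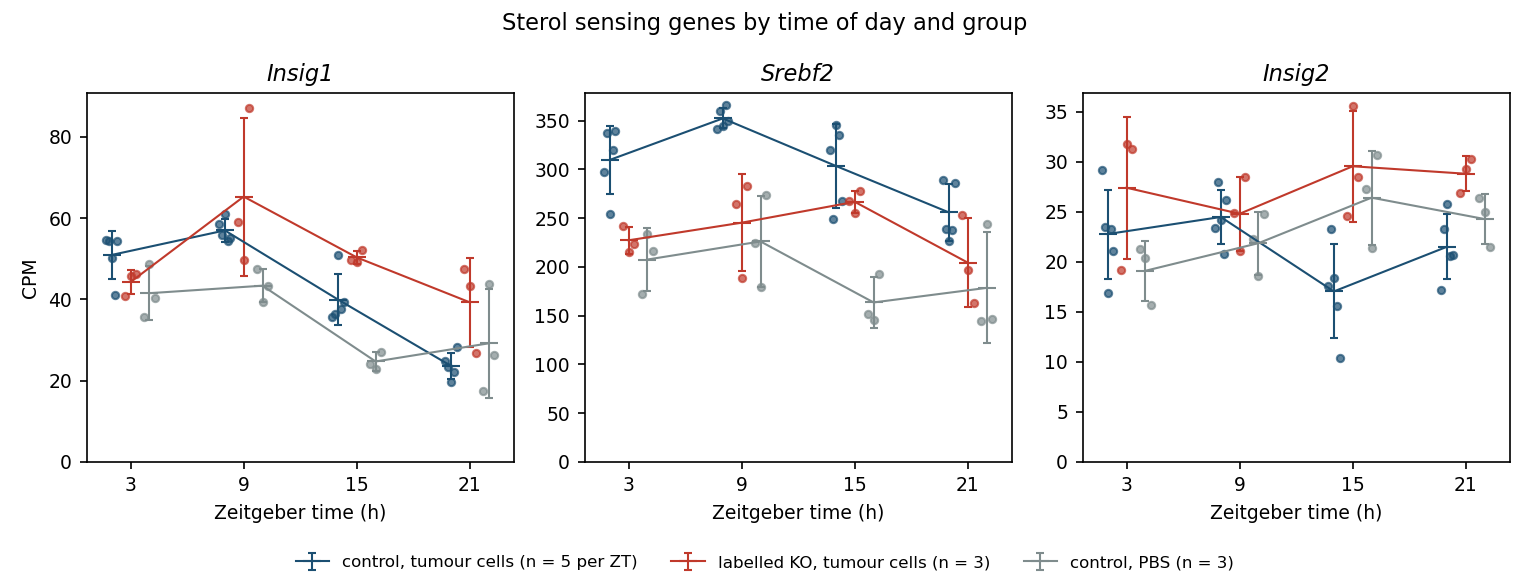
CPM of Insig1, Srebf2 and Insig2 (vertical axes, from 0) against Zeitgeber time in hours, with 1 point per mouse and the mean ± SD of each group joined by lines (5 tumour-injected control mice, 3 mice labelled KO and 3 sham-injected mice per timepoint). In control mice Insig1 fell from 57.0 CPM at ZT9 to 23.6 CPM at ZT21, and Srebf2 lay above both other groups at ZT3 and ZT9.

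*Insig2* (ENSMUSG00000003721.14, chr1:121304353-121332589, minus strand) encodes the second INSIG protein, which is not a typical SREBP target. In tumour-injected control mice it was 29.2, 23.5, 16.9, 23.3 and 21.05 CPM at ZT3, 23.3, 28.0, 24.2, 20.8 and 26.1 CPM at ZT9, 17.5, 23.3, 18.4, 15.6 and 10.3 CPM at ZT15 and 17.2, 23.3, 25.8, 20.6 and 20.6 CPM at ZT21. In libraries labelled KO it was 19.2, 31.7 and 31.3 CPM at ZT3, 24.9, 21.1 and 28.4 CPM at ZT9, 24.6, 35.6 and 28.5 CPM at ZT15 and 26.9, 29.3 and 30.3 CPM at ZT21. At ZT15 and ZT21 all 3 libraries labelled KO lay above all 5 control mice, a separation in either direction that 23.5% and 19.5% of all genes showed, while at ZT3 and ZT9 the groups overlapped. The difference averaged over the day was 0.37 on the log2 scale (SE 0.10, limma adjusted p = 0.00582), and at ZT15 it was 0.81 (SE 0.20, limma adjusted p = 0.0101). The ZT15 call was lost without the library labelled KO ZT15 replicate 2 (0.67, limma adjusted p = 0.0648). With PBS the gene was 27.2, 21.4 and 30.6 CPM at ZT15, and the difference between tumour cells and PBS was called there alone (-0.65, SE 0.19, limma adjusted p = 0.0206). That call was lost without control replicate 5 at ZT15 (-0.49, limma adjusted p = 0.0544), sham replicate 1 (-0.62, limma adjusted p = 0.0658) or sham replicate 3 (-0.53, limma adjusted p = 0.0926). *Insig1* and *Insig2* thus differed in opposite directions between tumour cells and PBS at ZT15. *Insig2* did not pass the time-of-day test in tumour-injected control mice (limma adjusted p = 0.176).

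*Srebf2* (ENSMUSG00000022463.8, chr15:82147181-82205379, plus strand) encodes SREBP2, the main activator of cholesterol synthesis genes. In tumour-injected control mice it was 297, 338, 254, 320.0 and 339 CPM at ZT3, 342, 360.2, 344, 366 and 349.9 CPM at ZT9, 319.9, 249, 346, 336 and 268 CPM at ZT15 and 289, 239, 227, 238 and 286 CPM at ZT21. The libraries labelled KO had 242, 215 and 224 CPM at ZT3, 264, 189 and 283 CPM at ZT9, 268, 255 and 277 CPM at ZT15 and 253, 197 and 163 CPM at ZT21. In sham-injected mice it was 172, 234 and 216 CPM at ZT3, 225, 179.9 and 273 CPM at ZT9, 152, 146 and 193 CPM at ZT15 and 145, 244 and 146 CPM at ZT21. Tumour-injected control mice had the higher values, and neither of the other groups overlapped with them at ZT3 or ZT9. Such a separation held for 13.0% and 20.5% of all genes between genotypes and for 16.6% and 24.2% between treatments. *Srebf2* averaged over the day differed by -0.37 between libraries labelled KO and control mice (SE 0.07, limma adjusted p = 2.21e-04) and by 0.67 between tumour cells and PBS (SE 0.08, limma adjusted p = 2.55e-07), on the log2 scale.

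By timepoint, the genotype difference in *Srebf2* was called at ZT9 (-0.54, SE 0.14, limma adjusted p = 0.0166) and the treatment difference at ZT3, ZT9, ZT15 and ZT21 (0.58, 0.66, 0.89 and 0.56, with limma adjusted p of 0.0215, 0.00596, 5.41e-04 and 0.0308). The ZT9 genotype call was lost without the library labelled KO ZT9 replicate 2 (-0.36, limma adjusted p = 0.181). Of the treatment calls, that at ZT15 was kept in every fit that left out a library. That at ZT3 was lost without sham replicate 1 (0.45, limma adjusted p = 0.161) or 3 (0.62, limma adjusted p = 0.0579), and that at ZT9 without sham replicate 2 (0.50, limma adjusted p = 0.0764). That at ZT21 was lost without control replicate 1 (0.51, limma adjusted p = 0.0717) or 5 (0.51, limma adjusted p = 0.0664), or sham replicate 1 (0.43, limma adjusted p = 0.197) or 3 (0.43, limma adjusted p = 0.180). In control mice every mouse at ZT9 lay above every mouse at ZT21 (log2 difference 0.47, SE 0.11, limma adjusted p = 0.0848). Such a separation in either direction held for 4.09% of all genes. For time of day in control mice *Srebf2* was just outside the threshold (limma adjusted p = 0.0672). It was inside it without control ZT3 replicate 3 (limma adjusted p = 0.0280), without ZT15 replicate 2 (limma adjusted p = 0.0415), with an intensity trend (0.0235), with array weights (0.00382) or among genes with a mean of at least 10 CPM (0.0394).

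*Srebf1* (ENSMUSG00000020538.15, chr11:60199089-60222581, minus strand), which encodes SREBP1, the activator of fatty acid synthesis genes and itself an LXR target, averaged 45.6 ± 7.13 CPM (SD, n = 20) after tumour injection of control mice. The libraries labelled KO averaged 50.3 ± 10.4 CPM (SD, n = 12), and sham injection gave 50.7 ± 11.9 CPM (SD, n = 12). The ranges over libraries overlapped widely, at 27.3 to 54.3 CPM, 36.8 to 71.3 CPM and 30.2 to 70.8 CPM. A single difference was called, at ZT21, where libraries labelled KO had 71.3, 54.1 and 46.9 CPM and control mice 27.3, 47.3, 40.8, 39.8 and 46.1 CPM (0.51 on the log2 scale, SE 0.17, limma adjusted p = 0.041). It was lost without control replicate 1 (0.38, limma adjusted p = 0.106), 3 (0.52, 0.0530) or 4 (0.51, 0.0640), without the library labelled KO replicate 1 (0.34, limma adjusted p = 0.275) or 2 (0.54, 0.0594), and with median-of-ratios scaling (0.38, limma adjusted p = 0.133). *Scap* (ENSMUSG00000032485.14, chr9:110333288-110384950, plus strand), which encodes the escort of SREBPs, averaged 43.6 ± 9.97 CPM (SD, n = 20), 46.2 ± 17.5 CPM (SD, n = 12) and 39.6 ± 5.73 CPM (SD, n = 12) for the same groups in turn, and no comparison called it. At ZT9 it was 42.3, 53.6, 47.1, 52.1 and 49.8 CPM in the tumour-injected control mice, 37.2, 29.4 and 28.3 CPM in libraries labelled KO and 40.3, 38.9 and 34.5 CPM in sham-injected mice. Both other groups lay wholly below the tumour-injected control mice there, a separation that 20.5% and 24.2% of all genes showed.

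*Mylip* (ENSMUSG00000038175.10, chr13:45389742-45412022, plus strand) encodes the LXR-induced ubiquitin ligase, also called IDOL, that limits lipoprotein uptake. In tumour-injected control mice it was 64.6, 63.1, 44.2, 61.2 and 59.7 CPM at ZT3, 52.8, 59.8, 59.8, 58.7 and 53.6 CPM at ZT9, 50.6, 55.3, 53.4, 64.5 and 43.7 CPM at ZT15 and 84.3, 66.8, 71.1, 69.7 and 58.3 CPM at ZT21. Libraries labelled KO had 53.4, 47.7 and 45.6 CPM at ZT3, 39.9, 59.4 and 33.0 CPM at ZT9, 37.6, 45.6 and 43.2 CPM at ZT15 and 38.8, 62.6 and 34.0 CPM at ZT21. In sham-injected mice it ranged over 40.5 to 57.2 CPM. The groups overlapped over all libraries, and at ZT21 the sham-injected mice lay wholly below the tumour-injected control mice, as ranges did not overlap there for 17.8% of all genes. Averaged over the day the difference was -0.41 between libraries labelled KO and control mice (SE 0.09, limma adjusted p = 7.76e-04) and 0.25 between tumour cells and PBS (SE 0.07, limma adjusted p = 0.0032), on the log2 scale. At single timepoints, ZT21 was called for the genotype (-0.67, SE 0.18, limma adjusted p = 0.0132). That call was lost without the library labelled KO ZT21 replicate 1 (-0.59, limma adjusted p = 0.0861), without replicate 3 (-0.49, limma adjusted p = 0.0875) and with array weights (-0.20, limma adjusted p = 0.216).

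*Nr1h2* (ENSMUSG00000060601.13, chr7:44549616-44553951, minus strand) encodes LXR beta, the broadly expressed LXR, and had the lowest ratio of SD to mean of the members in each group. Tumour-injected control mice averaged 115 ± 9.41 CPM (SD, n = 20), the libraries labelled KO 115 ± 13.5 CPM (SD, n = 12), and sham-injected mice 108 ± 11.2 CPM (SD, n = 12). Neither averaged difference was called (limma adjusted p = 0.971 for the genotype and 0.179 for the treatment), and the treatment difference was called with median-of-ratios scaling (0.14, limma adjusted p = 0.0408). At ZT15 the 3 libraries labelled KO, with 124, 139 and 136 CPM, lay above the 5 control mice, with 106, 106, 115, 101 and 109 CPM (0.30 on the log2 scale, SE 0.10, limma adjusted p = 0.0366), and ranges did not overlap there for 23.5% of all genes. The median of all genes at this timepoint was 0.25 higher in libraries labelled KO, and 0.04 higher after median-of-ratios scaling, with which *Nr1h2* differed by 0.09 (limma adjusted p = 0.645). Over the 32 fits that left out 1 library the difference lay between 0.27 and 0.36, and 7 lost the call, those without control replicates 1, 2, 4 and 5 (limma adjusted p = 0.0600, 0.0532, 0.0657 and 0.0587) and without replicates 1, 2 and 3 labelled KO (limma adjusted p = 0.0534, 0.116 and 0.109), all at ZT15.

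*Abcg1* (ENSMUSG00000024030.7, chr17:31057675-31117988, plus strand) encodes a half-transporter that passes cholesterol to high-density lipoprotein, and it had the smallest adjusted p of the members in both averaged comparisons. In tumour-injected control mice it was 598, 585, 599, 557 and 518 CPM at ZT3, 487, 523, 468, 472 and 468 CPM at ZT9, 646, 574, 634, 627 and 593 CPM at ZT15 and 599, 637, 688, 634 and 575 CPM at ZT21. The libraries labelled KO held 264, 348 and 339 CPM at ZT3, 251, 349 and 276 CPM at ZT9, 248, 284 and 301 CPM at ZT15 and 404, 361 and 359 CPM at ZT21. In sham-injected mice it was 407, 348 and 343 CPM at ZT3, 309.6, 284 and 369 CPM at ZT9, 493, 433 and 477 CPM at ZT15 and 413, 425 and 429 CPM at ZT21. All 12 libraries labelled KO lay below all 20 control libraries, which holds in either direction for 0.903% of the genes tested, and *Abcg1* was the single member for which it held. Sham-injected mice lay below tumour-injected control mice at each timepoint taken alone (at ZT15 and ZT21, 19.4% and 17.8% of all genes did not overlap), with an overlap over all libraries, which 2.15% of all genes lacked.

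On the log2 scale *Abcg1* differed by -0.87 between libraries labelled KO and control mice (SE 0.05, limma adjusted p = 1.64e-12) and by 0.55 between tumour cells and PBS (SE 0.05, limma adjusted p = 3.32e-10). The genotype difference was called at ZT3, ZT9, ZT15 and ZT21 (-0.86, -0.74, -1.15 and -0.74), and so was the treatment difference (0.64, 0.60, 0.39 and 0.57). In the 40 alternatives of each, the averaged genotype difference lay between -0.97 and -0.84 and the averaged treatment difference between 0.53 and 0.60, all called. *Abcg1* also varied with the time of day in control mice (limma adjusted p = 0.0218). There it was lowest at ZT9, wholly below ZT15 and ZT21 (ZT9 minus ZT15 -0.35, SE 0.08, limma adjusted p = 0.00999, a test that called 12.1% of all genes). Ranges at ZT9 and ZT21 did not overlap for 4.09% of all genes, and the share for ZT9 against ZT15 was not counted. Across all 44 libraries *Abcg1* at ZT9 lay -0.22 from the mean of the day (limma adjusted p = 0.00422). The call in control mice was lost without ZT9 replicate 3 (limma adjusted p = 0.0628), 4 (0.0595) or 5 (0.0550). *Insig1* had its highest and *Abcg1* its lowest mean at ZT9 in tumour-injected control mice. *Abcg1* was also lowest at ZT9 in sham-injected mice (321 ± 43.6 CPM, SD, n = 3), and in libraries labelled KO its means at ZT9 (292 ± 51.0 CPM) and ZT15 (278 ± 27.0 CPM, SD, n = 3 each) differed by less than the SD of either. The interaction of genotype and time did not call *Abcg1* (limma adjusted p = 0.254). Markers of other cells also varied with the time of day in tumour-injected control mice. Called were 8 of 14 macrophage and monocyte, 3 of 18 T cell and 2 of 10 NK cell markers, against 5.28% of all genes. The summed macrophage and monocyte markers were lowest at ZT9 (359 ± 37.8 CPM) and highest at ZT15 (515 ± 49.4 CPM), and the summed T cell markers ran from 796 ± 83.8 CPM at ZT9 to 1036 ± 119 CPM at ZT21 (SD, n = 5 each). Their part in the course of *Abcg1* or *Insig1* was not tested.

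*Abca1* (ENSMUSG00000015243.4, chr4:53030787-53159895, minus strand) encodes the exporter that loads lipid-poor apolipoprotein. In tumour-injected control mice it was 3.10, 6.86, 5.29, 9.998 and 4.17 CPM at ZT3, 4.73, 6.27, 7.08, 3.16 and 8.82 CPM at ZT9, 6.48, 4.38, 10.4, 10.1 and 4.56 CPM at ZT15 and 6.27, 11.1, 11.5, 7.24 and 8.18 CPM at ZT21. In sham-injected mice it was 15.5, 8.55 and 10.2 CPM at ZT3, 8.03, 12.7 and 13.5 CPM at ZT9, 7.48, 15.02 and 10.1 CPM at ZT15 and 10.6, 14.1 and 20.4 CPM at ZT21. The sham-injected mice had the higher means at each timepoint, with overlapping ranges. The difference between tumour cells and PBS averaged over the day was -0.79 (SE 0.17, limma adjusted p = 6.46e-04), opposite in sign to that of *Abcg1*, and no single timepoint was called. Libraries labelled KO spread widely, over 1.78 to 21.1 CPM, and their averaged difference of 0.21 was not called (SE 0.25, limma adjusted p = 0.545). Macrophage and monocyte markers moved with *Abca1*, with 12 of 14 called lower with tumour cells than with PBS (median -1.33 on the log2 scale). Of all genes, 24.6% were called lower, and their median difference was -0.04. The part of these markers in the difference of *Abca1* was not tested.

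**Figure D2:**
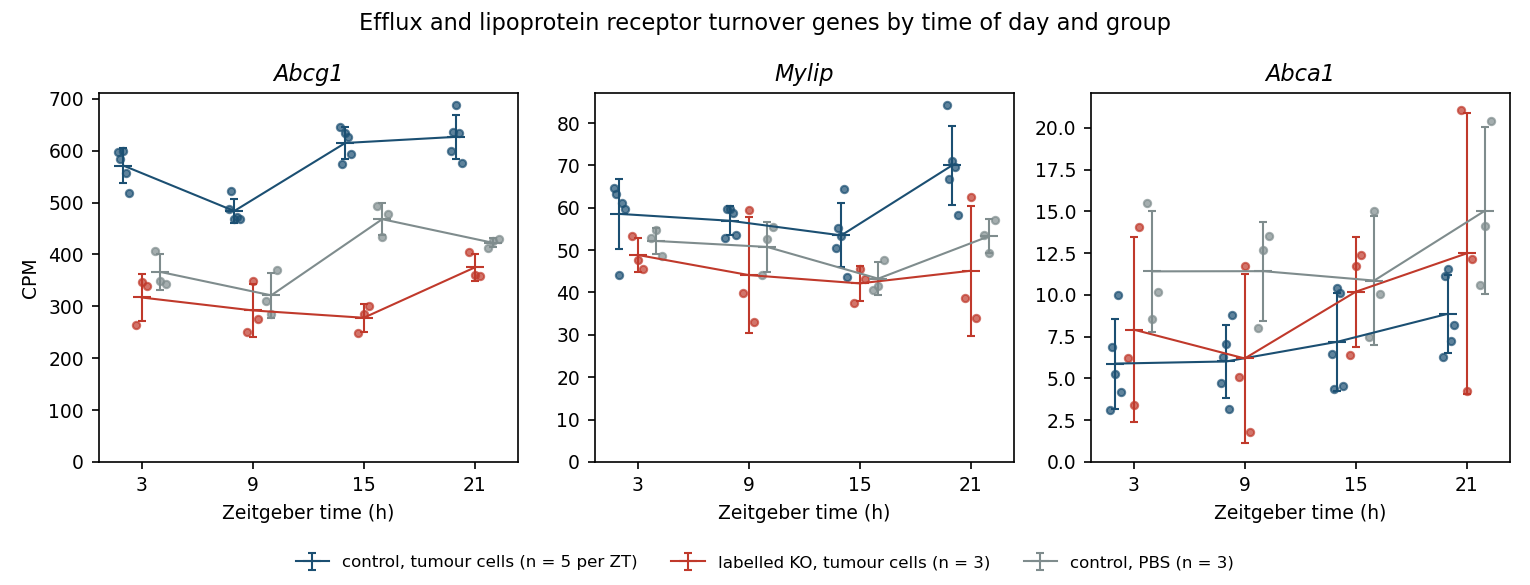
CPM of Abcg1, Mylip and Abca1 (vertical axes, from 0) against Zeitgeber time in hours, drawn as in the plot of the sensing genes. For Abcg1 the libraries labelled KO reach 404 CPM and the tumour-injected control mice start at 468 CPM, while for Abca1 the groups overlap.

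Over the 9 members, 5 differed by genotype when averaged over the day (2 higher, *Insig1* and *Insig2*, and 3 lower, *Srebf2*, *Mylip* and *Abcg1*), against 33.7% of all genes tested (23.5% higher and 10.2% lower). With median-of-ratios scaling the share of higher genes among those called fell from 69.8% to 49.9%, and *Insig1* left the called members. By treatment, 5 members were called (4 higher with tumour cells, *Insig1*, *Srebf2*, *Mylip* and *Abcg1*, and *Abca1* lower), against 37.9% of all genes (13.3% higher and 24.6% lower), and the share of higher genes among those called was 35.1% with the deposited scaling and 46.1% with median-of-ratios scaling. The median difference of the members was 0.04 by genotype and 0.11 by treatment, and that of all genes 0.10 and -0.04. At ZT3, ZT9, ZT15 and ZT21 the genotype test called 1, 2, 3 and 4 members, against 5.20%, 8.94%, 14.8% and 14.2% of all genes. The treatment test called 2, 2, 4 and 2 members, against 10.5%, 16.3%, 17.6% and 9.21%. Median-of-ratios scaling moved the median genotype difference of all genes by 0.20 at ZT15 and 0.12 at ZT21.

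For time of day, 2 members (*Insig1* and *Abcg1*) were called in tumour-injected control mice, against 5.28% of all genes, and the same 2 across all groups, against 3.91%. The cosinor called *Insig1*, against 0.0251% of all genes. In libraries labelled KO and in sham-injected mice limma called no gene of the table by time of day (1232 and 890 genes, with 0 and 2 members, at an unadjusted p under 0.05) or by cosinor (1258 and 883 genes, with 3 and 3 members). None of the alternatives run called a member there. The genotype interaction with time called 0 members, against 0.0502% of all genes, and *Insig1* was called with array weights. At an unadjusted p under 0.05 there were 5 members, against 18.3% of all genes. The treatment interaction called 0 members and 0 genes in all. There 2 members were at an unadjusted p under 0.05, against 11.9% of all genes.

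**Figure D3:**
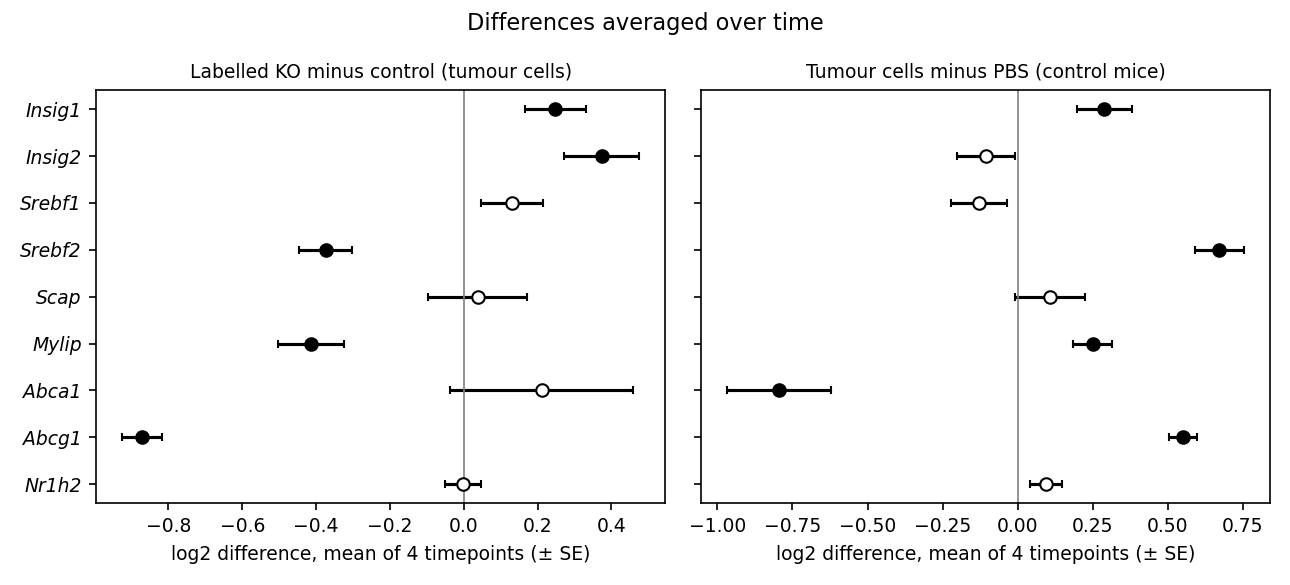
Log2 difference averaged over 4 timepoints (horizontal axis, points with ± SE bars) of the 9 members (vertical axis), on the left for libraries labelled KO minus control mice and on the right for tumour cells minus PBS. Filled points passed the limma test at an adjusted p under 0.05, and Abcg1 stands farthest from 0 on the left, at -0.87.

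**Figure D4:**
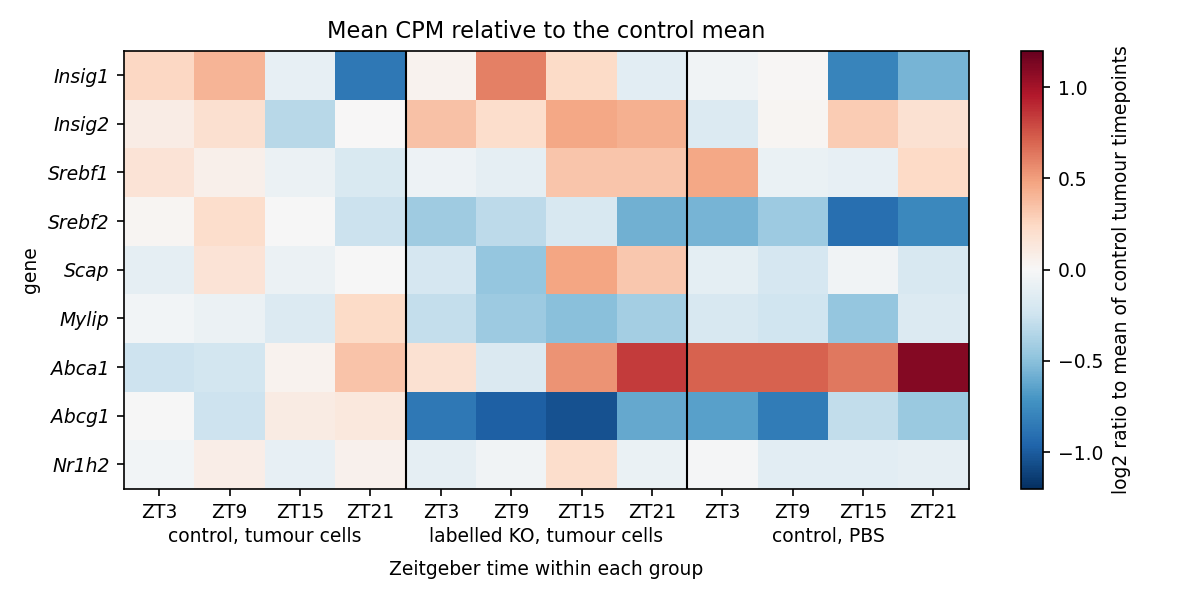
Mean CPM of each member (rows) in each group and timepoint (columns), as the log2 ratio to its mean over the control tumour timepoints (colour scale from -1.2 to 1.2). Abcg1 is between -1.05 and -0.30 in all columns of the other groups, and Insig1 reaches -0.86 at ZT21 in tumour-injected control mice.

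The other genes of the pathway were counted in lists. Of 21 cholesterol synthesis enzymes, which SREBP2 regulates, 10 were called for time of day in tumour-injected control mice (5.28% of all genes) and 11 across all groups (3.91%). *Hmgcs1*, the synthase that starts the mevalonate pathway, was 228 ± 51.7 CPM at ZT9 and 119.9 ± 18.2 CPM at ZT21 (SD, n = 5 each, limma adjusted p = 0.0120 for time of day). *Sqle*, the squalene oxidase, was 91.4 ± 13.8 CPM at ZT9 and 48.9 ± 7.97 CPM at ZT21 (SD, n = 5 each, limma adjusted p = 0.00648). By genotype 10 enzymes rose and 2 fell, *Mvk* and *Pmvk*, both kinases of the mevalonate pathway (median of the list 0.22, against 0.10 for all genes, of which 23.5% rose and 10.2% fell), and with median-of-ratios scaling 5 rose and 2 fell (median 0.13). Among them were *Sqle* at 0.54 (SE 0.08, limma adjusted p = 2.00e-05) and *Mvk* at -0.51 (SE 0.09, limma adjusted p = 1.08e-04). By treatment 11 rose and 2 fell (median 0.22, against -0.04 for all genes, of which 13.3% rose and 24.6% fell), and the examples were *Mvd* at 0.35 (SE 0.08, limma adjusted p = 0.00128) and *Lbr*, a sterol reductase and lamin receptor, at -0.59 (SE 0.13, limma adjusted p = 7.22e-04).

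Of 13 genes of SREBP activation and INSIG turnover, 0 were called for time of day in control mice (limma, against 5.28% of all genes). At an unadjusted p under 0.05 there were also 0, against 23.1% of all genes. In libraries labelled KO 0 were called, with 3 at an unadjusted p under 0.05, against 10.3% of all genes. Across all groups 1 was called (3.91% of all genes). Between groups, 33.7% of all genes were called by genotype and 37.9% by treatment. By genotype 2 were called, both higher, *Pgrmc1*, a haem-binding partner of INSIG (0.27, SE 0.06, limma adjusted p = 7.47e-04), and *Rnf145*, a ligase of the sterol-sensing machinery (0.49, SE 0.11, limma adjusted p = 0.00117). By treatment 2 rose and 2 fell, the latter being the same *Pgrmc1* (-0.23, SE 0.06, limma adjusted p = 0.00189) and *Rnf145* (-0.42, SE 0.10, limma adjusted p = 0.00194). Of 11 lipogenic targets of SREBP1, 1 was called in each contrast, *Acsl3* by genotype (0.63, SE 0.18, limma adjusted p = 0.00701) and *Elovl6* by treatment (-0.92, SE 0.22, limma adjusted p = 0.00165).

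Of 15 LXR partners and other LXR targets, 9 were called by genotype (6 higher and 3 lower, median 0.23), against 33.7% of all genes with a median of 0.10. By treatment 11 were called (2 higher and 9 lower, median -0.45), against 37.9% of all genes (24.6% lower) with a median of -0.04. With median-of-ratios scaling these were 6 higher and 5 lower by genotype and 5 higher and 8 lower by treatment. *Nr1h3*, which encodes LXR alpha, the LXR of macrophages, differed by 0.45 (SE 0.13, limma adjusted p = 0.00879) between libraries labelled KO and control mice and by -1.03 (SE 0.10, limma adjusted p = 9.81e-09) between tumour cells and PBS. *Pltp*, the phospholipid transfer protein, differed by 1.12 (SE 0.19, limma adjusted p = 6.28e-05) and -1.85 (SE 0.15, limma adjusted p = 1.35e-10). The macrophage and monocyte markers moved with both genes, with 12 of 14 higher and 1 lower in libraries labelled KO (median 0.82) and 12 of 14 lower with tumour cells than with PBS, and their part was not tested. Of 12 genes of oxysterols and cholesterol esters, 3 rose and 3 fell in each contrast, against 33.7% of all genes called by genotype and 37.9% by treatment (by genotype 1 and 3 with median-of-ratios scaling). *Osbp*, an oxysterol-binding lipid carrier, differed by -1.19 (SE 0.15, limma adjusted p = 8.95e-07) by genotype and by 1.23 (SE 0.14, limma adjusted p = 4.99e-08) by treatment. Of 15 genes of lipoprotein uptake and lysosomal sterol export, 4 rose and 3 fell by genotype (33.7% of all genes were called) and 3 rose and 4 fell by treatment (37.9% of all genes). With median-of-ratios scaling 3 rose and 4 fell by genotype and 4 rose and 4 fell by treatment. *Npc2*, which hands cholesterol out of the lysosome, was lower in libraries labelled KO (-0.52, SE 0.07, limma adjusted p = 8.18e-07).

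Across the 44 libraries, which share groups and timepoints, the gene most like *Insig1* was *Hmgcs1* (Pearson r of log2 values 0.89), followed by *Fdft1* (0.87), the squalene synthase. For *Srebf2* they were *Myo1g* (0.83) and *Lnx2* (0.82), and for *Abcg1* they were *Bcl2a1c* (0.84) and *Gm20594* (0.84). The other members had less similar nearest genes, *Zfyve27* (0.74) and *Taf8* (0.74) for *Insig2*, *Capn2* (0.67) and *Pde12* (0.65) for *Srebf1*, *Xpo6* (0.73) and *Sbno2* (0.73) for *Scap*, *H2-Q7* (0.71) and *Stk35* (0.70) for *Mylip*, *Wdfy4* (0.66) and *Arhgap19* (0.63) for *Abca1*, and *Camta2* (0.60) and *Rpap1* (0.59) for *Nr1h2*. Among the members, *Insig1* and *Srebf2* were the most alike (0.61 over all libraries and 0.72 after the mean of each group and timepoint was removed). Over all libraries *Srebf2* and *Abca1* were the least alike (-0.44, and -0.06 after removal), close to *Insig1* and *Abca1* (-0.43). After removal *Insig1* and *Abca1* were the least alike (-0.22). These r values describe the 44 libraries and carry no test.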

How the data were processed

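Sorted DCs of 44 mice were profiled by SMART-Seq and Nextera XT, 1 mouse per library, so that p-values measure the spread between mice. Single reads were mapped by the authors (mm10, STAR 2.7.0) and counted with HTSeq 0.9.1, and they deposited linear CPM for 14699 genes. Depth was read from the value of 1 read, of which 87.5% to 89.3% of values per library are whole multiples (within 0.01 read). The others are fractions, so no count test was run. CPM rests on the total, so a change in a few abundant genes moves all others. Members, lists and tests were chosen with earlier results of these data known.

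Genes with at least 1 CPM in 5 libraries were tested on log2(CPM + 0.5), which understates changes of low genes, with limma 3.58.1 (R 4.3.3), empirical Bayes moderation, two-sided tests and Benjamini–Hochberg adjustment over all 11963 genes. Calls are at an adjusted p under 0.05, and for ZT9 against ZT21 also 2-fold. Time of day (4 means, and a 24-h cosinor) was fitted within each group and, with a group term, in all 44 libraries. Genotype and treatment contrasts used 32 libraries each. The models were tested on simulated data. Alternatives were pseudocounts of 1 and 0.1, median-of-ratios scaling, all genes, genes with a mean of at least 10 CPM, an intensity trend, array weights, a replicate block and leaving out each library. Named genes are the 9 members, examples from each pathway list among the called genes, and for each member its most correlated genes, of which 2 of 3 are printed. Coordinates and exon lengths are those of GENCODE M21 (GRCm38, the same assembly as mm10), promoters those of RefSeq (GRCm38.p6). Python 3.11.15, numpy 2.4.6 and pandas 2.3.3 were used. Some genes of the lists are counted but not reported here by name.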

Additional observations from a re-analysis of the deposited data

Results flagged for a closer look

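In 2 of the 36 sets of 5 control mice, 1 mouse stood apart from the others of its set by Dixon's criterion, where chance gives about 1 in 20. *Insig1* in control mice with tumour cells at ZT15 was 50.9 CPM in replicate 3, and the next value was 39.3 CPM. *Mylip* in control mice with tumour cells at ZT3 was 44.2 CPM in replicate 3, and the next value was 59.7 CPM.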

How the results depend on the processing

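Of the results of single members outside the fits that leave out a library, 1120 kept their direction and side of the threshold, 12 became weaker, 12 stronger and 10 changed sign, all 10 on values that were not called. With array weights the number of members called rose from 2 to 4 for time of day in control mice and in all groups, from 1 to 3 for their cosinor and from 0 to 1 for the genotype interaction. With the replicate block, the numbers fell from 2 to 1 for time of day in control mice and from 5 to 3 for the averaged genotype difference (*Insig1* 0.23, limma adjusted p = 0.0822, and *Insig2* 0.29, 0.0505, no longer called). The labels do not say whether the replicate numbers pair the samples. Libraries of the same number correlated by -0.05 to 0.02 on average, and 7 of 44 correlated best with their own number. These were 1 of 20 in tumour-injected control mice, 6 of 12 in libraries labelled KO and 0 of 12 in sham-injected mice. Such correlations do not settle whether the numbers carry a pairing. Leaving out 1 library gave 1 to 3 members for time of day in control mice, 2 to 3 in all groups and 4 to 5 for the averaged genotype difference. The signs that changed with median-of-ratios scaling were those of ZT9 minus ZT21 for *Nr1h2* in control mice (-0.027), *Mylip* in libraries labelled KO (0.10) and *Scap* in sham-injected mice (-0.027), and of the averaged genotype difference of *Scap* (-0.055). With array weights they were ZT9 minus ZT21 for *Nr1h2* in control mice (-0.0096), libraries labelled KO (-0.088) and sham-injected mice (0.046), and the averaged genotype difference of *Abca1* (-0.11), *Nr1h2* (0.013) and *Scap* (-0.019). Without 1 library each, ZT9 minus ZT21 ranged for *Mylip* from -0.26 to 0.23 in libraries labelled KO and from -0.14 to 0.022 in sham-injected mice, for *Nr1h2* from -0.022 to 0.057 in control mice, from -0.011 to 0.12 in libraries labelled KO and from -0.094 to 0.13 in sham-injected mice, and for *Scap* from -0.11 to 0.14 in sham-injected mice. The averaged genotype difference ranged from -0.022 to 0.012 for *Nr1h2* and from -0.049 to 0.12 for *Scap*. The cause was not tested. Single-timepoint differences were followed where they were called. Of the 52 that were not, 5 changed sign in some alternative and 14 when a library was left out. Depth limits *Abca1* most, with 75 reads in its lowest library.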
